A study of Mus musculus with 20 samples.

Results

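The genes described here are serine proteases and serpins, read in the postnatal mouse testis. They were taken from the array by gene symbol: Prss, Tmprss (transmembrane serine proteases) and Klk (kallikreins) followed by a number, and the Serpin genes of clades A to I, with 1 gene whose symbol fits the pattern left out. Of 18193 genes with a probe set of their own, 102 were members, 62 proteases and 40 serpins, and each was read through 1 probe set, that of the highest mean log2 value among those naming it alone. By family these were 30 Prss, 12 Tmprss and 20 Klk genes, and 14 serpins of clade A, 18 of clade B and 8 of clades C to I. Prss43, Tmprss12 and Serpina1a are not analysed here.

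RNA of whole mouse testis was hybridised to 20 single-channel arrays, 2 on the day of birth (day 0) and 2 on each of days 3, 6, 8 and 10, on days 14, 18 and 20 and on days 30 and 35, and a value is the intensity of a probe set on a linear scale. The labels name no strain, genotype or treatment, and day is the only factor between the groups. The labels do not say whether separate animals gave the 2 arrays of a day, so p-values here measure only a spread that may be technical. For day 18 replicate 2 the title and another label, which says day 0, conflict, and the title was followed. On that array Prss35 read 844 and Prss21 243, where day 18 replicate 1 read 782 and 238. The day 0 arrays read 2894 and 2690 for Prss35 and 2.67 and 8.00 for Prss21.

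Trypsin-like serine proteases are made as inactive precursors and cut proteins through a catalytic triad of histidine, aspartate and serine. Serpins are suicide inhibitors: the protease cuts an exposed loop and is trapped on the serpin, although some family members inhibit nothing and serve as chaperones or hormone carriers. In the testis, germ cells store proteases in the acrosome and on the sperm surface for capacitation and passage to the egg, and somatic cells secrete proteases and serpins that act on the matrix and the tubule fluid. In the mouse the first germ cells enter meiosis in the second week after birth, and round and then elongating spermatids follow over the weeks after it.

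Most tested proteases were called higher on day 35 than on day 0. Among them were Prss37, Prss39, Prss21, Prss55, Prss52 and Prss54 and a group of Klk1b kallikreins. Some other protease rises, at low levels, were not kept when low values were raised to a floor. Prss35, Serpinh1, Serpinb6a, Serpina5, Serpinf1 and Serping1, all high in the newborn testis, fell. The rises differed in time. Prss44, Prss45 and 1 of the 2 probe sets of Prss41 were called higher by day 14. Prss21, Prss39, Prss40, Prss42, Prss46 and Prss56 were called higher between days 14 and 20. Rises after day 20 were the main ones of Prss37, Prss51, Prss52, Prss54, Prss55 and Prss58 and the kallikreins Klk1b8 and Klk1b27. Levels in whole testis follow both the share of a cell type and the RNA in each cell, and fewer cells of a type and less RNA per cell cannot be told apart here.

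**Figure D1:**
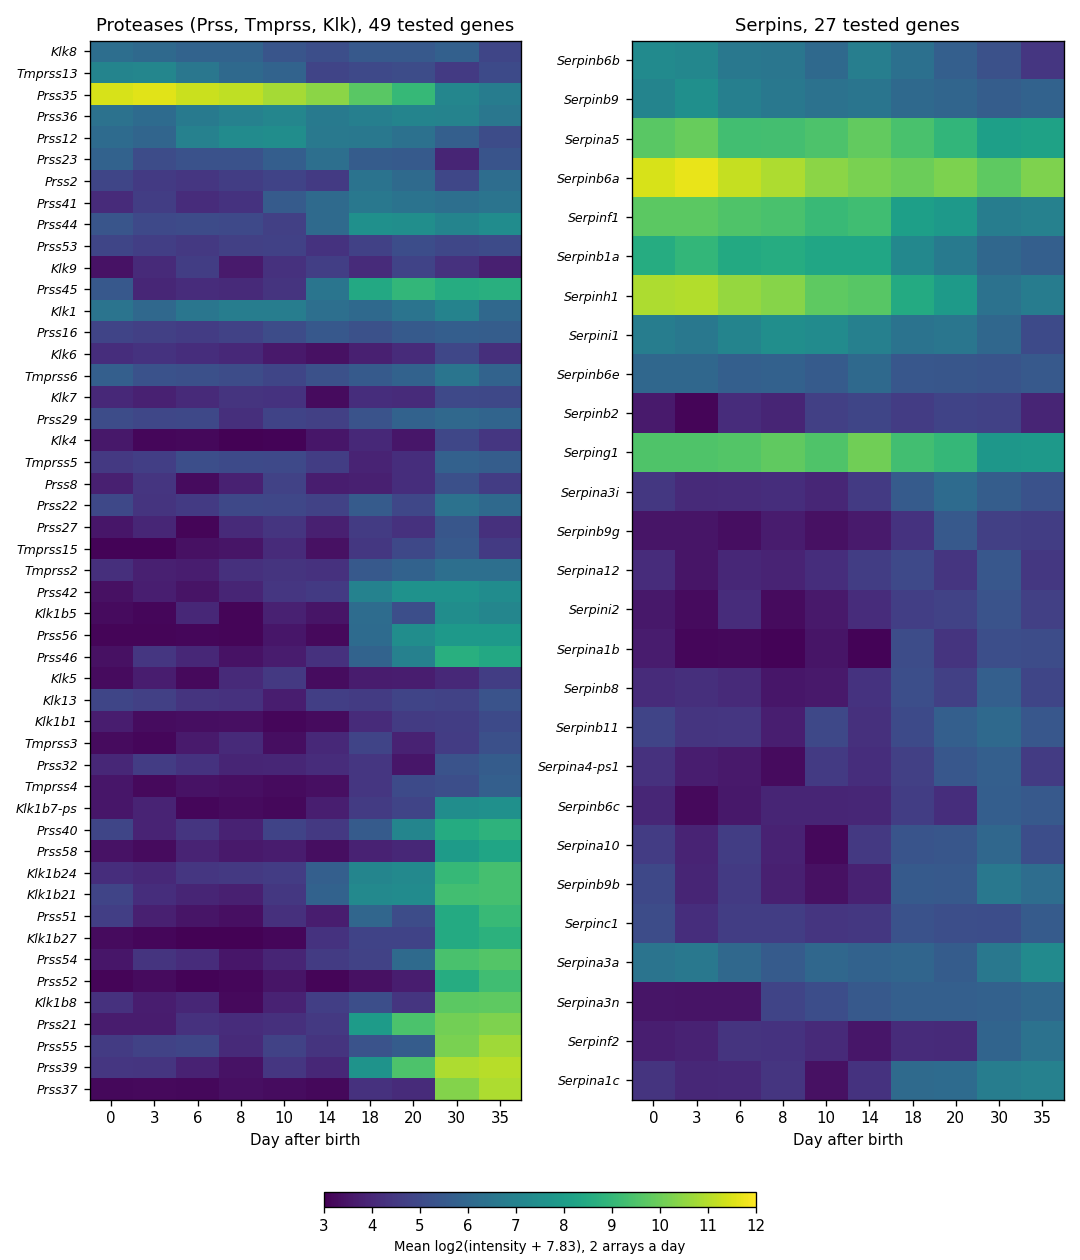
Mean log2(intensity + 7.83) of the 2 arrays of each day (columns, day after birth) for the 49 tested proteases (left) and 27 tested serpins (right), each panel ordered by the day of the highest mean. Many proteases at the bottom of the left panel are bright from day 18 or from day 30, while Prss35, Serpinh1, Serpinb6a, Serpina5, Serpinf1 and Serping1 are brightest before day 20.

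Of the 102 members, 76 exceeded the 40th percentile of their array on at least 2 arrays and were tested among 16429 genes: 27 Prss, 7 Tmprss, 15 Klk, 9 clade A, 11 clade B and 7 clade C to I genes. The other 26 stayed low throughout, with highest single arrays between 8.07 and 46.3. Just outside the filter lay Klk1b11, Serpina6, Klk1b16 and Serpind1, each above it on 1 array, with highest values of 46.3, 42.0, 41.3 and 33.9. Just inside lay Serpinb2, Klk6, Klk5 and Klk1b1, each with highest values of 26.8, 30.3, 31.3 and 32.7. A gene that is low on most days passed through the days when it was high, so counts over the tested members describe those genes only.

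Differences are on the log2(intensity + 7.83) scale, with the standard error (SE) of a limma fit of all 20 arrays. A call needed a 2-fold change, 1 on the log2 scale, and a limma adjusted p under 0.05. Over the time course limma called 65 of 76 tested members, 85.5%, against 77.6% of all tested genes, and 63 without the array of the conflicting label. On day 35 against day 0, 38 members were higher and 13 lower, where 27.3% and 27.6% of all tested genes were. The proteases made up most of the rises, 31 of 49 (63.3%), with 4 lower. Among the serpins 7 of 27 were higher (25.9%, near the share of all genes) and 9 lower (33.3%). Most of these serpin rises were not kept when low values were raised to a floor, as given below. The median log2 difference was 2.34 over the 27 Prss genes, 1.42 over the 7 Tmprss, and 1.28 over the 15 Klk genes, against -0.03 over all tested genes. It was 0.49 over the 27 serpins, 0.80 in clade A, 0.29 in clade B and -1.70 in clades C to I.

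In the steps between, 2 members were higher and 4 lower on day 8 than on day 0, against 3.29% and 2.77% of all genes. On day 14 against day 8, 8 were higher and 1 lower, against 5.48% and 2.5%, and all 9 were proteases. No serpin was called by limma in that step in either direction, with 1 higher and 3 lower at an unadjusted p under 0.05. On day 20 against day 14, 27 were higher and 6 lower, against 18.2% and 11.2%, and 21 of the rises were proteases and 5 of the falls serpins. On day 35 against day 20, 22 were higher and 6 lower, against 8.5% and 7.27%, with 19 proteases among the rises. These comparisons share arrays and are not independent.

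**Figure D2:**
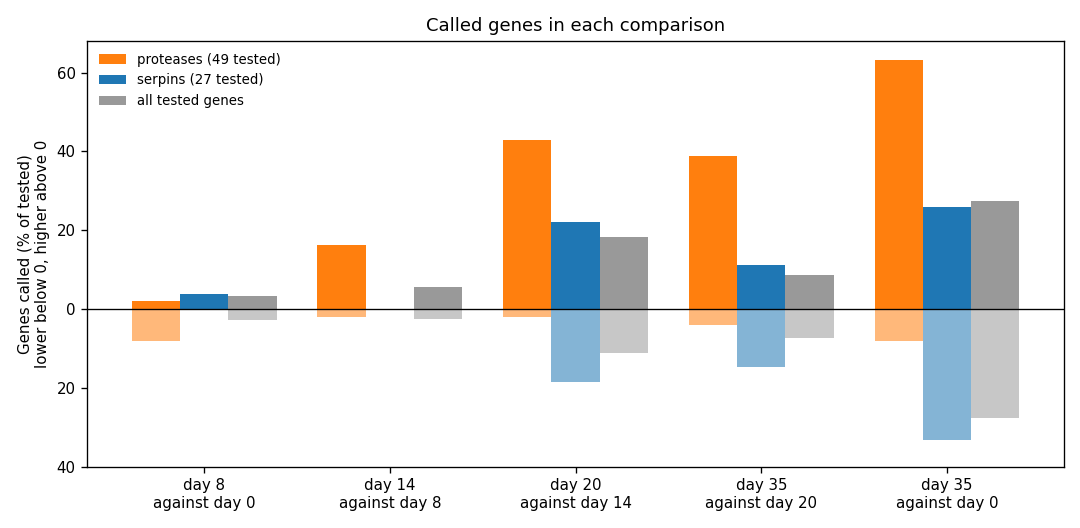
Share of tested genes called higher (above 0) and lower (below 0, lighter) in each comparison, as a percentage, for the 49 proteases, the 27 serpins and all 16429 tested genes. On day 35 against day 0 the bar for higher proteases reaches 63.3%, against 25.9% of serpins and 27.3% of all genes.

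The days of highest mean were late for most called members. Of the 65 members called over the time course, 44 (67.7%) had their highest day mean on day 30 or 35, 9 on days 14 to 20 and 12 on days 0 to 10, where 35.1%, 20.5% and 44.4% of the 12748 called genes did. For the 39 called proteases the late share was 76.9%, and for the 26 called serpins 53.8%.

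A change of low values between days 14 and 18 bears on these counts. The 20th percentile of an array lay between 5.12 and 6.65 on days 0 to 14 and between 9.41 and 12.9 on days 18 to 35, and the medians were 29.4 to 33.4 and 35.0 to 43.4. With every value under the pooled median of 34.6 raised to it, 10 of the 27 members higher on day 20 than on day 14 were still called, as were 6 of the 6 lower ones, where 11.2% and 10.9% of all genes were then called. In the same setting 2 of 8 rises were kept on day 14, 17 of 22 on day 35 against day 20, and 24 of 38 rises and 11 of 13 falls on day 35 against day 0, where 19.8% and 26.2% of all genes were then called. The other rises started below that median, and some ended above it, as Prss54 did with 61.0 and 61.4 on day 20. Proteases whose rise on day 35 against day 0 was not kept were Klk1b1, Klk5, Prss2, Prss22, Prss32, Tmprss3, Tmprss4, Tmprss5 and Tmprss15. Of the 7 serpin rises in that comparison only those of Serpina1c and Serpinf2 were kept. None of the 6 serpin rises on day 20 against day 14 was kept.

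Prss42, Prss44, Prss45 and Prss46 form a cluster of testis serine proteases on chromosome 9, with no more than 3 protein-coding genes between neighbours. Their promoter sequences, as RefSeq gives them for build GRCm38.p6, are shown for Prss42, Prss45 and Prss46, neighbours that were all called higher on day 20 than on day 14. Each line holds the 150 bases before the transcription start, plus strand, with capitals on the E-box CACGTG: Prss42 at chr9:110798035-110798184, Prss45 at chr9:110834438-110834587 and Prss46 at chr9:110844356-110844505.
Prss42: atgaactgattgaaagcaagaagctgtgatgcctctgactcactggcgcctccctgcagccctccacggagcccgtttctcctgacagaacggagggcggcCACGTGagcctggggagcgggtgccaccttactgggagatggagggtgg
Prss45: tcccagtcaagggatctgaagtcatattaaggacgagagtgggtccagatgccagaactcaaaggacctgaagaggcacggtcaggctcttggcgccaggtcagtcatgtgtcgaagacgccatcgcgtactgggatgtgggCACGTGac
Prss46: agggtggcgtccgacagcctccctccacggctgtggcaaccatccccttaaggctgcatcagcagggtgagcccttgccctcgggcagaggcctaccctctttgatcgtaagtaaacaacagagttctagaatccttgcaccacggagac
The E-box lies at -49 in Prss42 and at -8 in Prss45, counted from the start, and these letters are not in the window of Prss46.

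The E-box was added to the search after the sequences were read, so its count is a description. It was searched on both strands in the 250 bases before the start, together with the cAMP response element TGACGTCA and its core TGACG, the TATA box TATAAA, the GC box CCGCCC and the CCAAT box, whose letters are its name. CACGTG occurred in 3 of 84 members with a promoter in the table (Prss40, Prss42 and Prss45, 3.57%), and in 6.05% of 27025 genes. TATAAA was in 13.1% of the members and 13.0% of all genes, CCAAT in 39.3% and 34.5%, TGACG in 15.5% and 17.9%, and CCGCCC in 15.5% and 32.9%. TGACGTCA was in none of the 84 windows and in 1.62% of all.

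Prss45 rose in 2 steps. Its arrays read 35.2 and 38.9 on day 0, 10.0 and 7.95 on day 8, 97.9 and 69.1 on day 14, 360 and 311 on day 18, 511 and 475 on day 20 and 390 and 409 on day 35. Among days 8, 14, 18 and 20, both arrays of each later day lay above both of the earlier one. The rise was 2.43 (SE 0.21, limma adjusted p = 4.1e-08) from day 8 to 14 and 2.47 (SE 0.21, limma adjusted p = 9.1e-09) from day 14 to 20. Its lower value on day 8 than on day 0, a log2 difference of -1.42 (limma adjusted p = 6.3e-05), was not called with a larger pseudocount, the 40th percentile (-0.94), or with the floor (-0.10).

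Prss44 read 27.3 and 20.9 on day 8, 63.6 and 58.0 on day 14, 178 and 170 on day 18 and 169 and 165 on day 20. It rose by 1.11 (SE 0.27, limma adjusted p = 0.0046) and then by 1.35 (limma adjusted p = 3.1e-04), with no overlap between the arrays of these days. The first of these calls ended without day 8 replicate 2 (0.96, adjusted p = 0.057), with quantile normalization (0.92) and with the floor (0.81). Prss44 has 3 other probe sets, and all had higher values on day 20 than on day 14, by 1.45 to 2.16.

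Prss42, a spermatocyte protease in the mouse, read 24.1 and 8.78 on day 14, 114 and 123 on day 18, 187 and 179 on day 20 and 144 and 176 on day 35. Prss46 read 10.1 and 13.0 on day 14, 46.3 and 54.0 on day 18, 119 and 111 on day 20, 406 and 399 on day 30 and 354 and 330 on day 35. From day 14 to day 20 Prss42 rose by 3.05 (SE 0.36, limma adjusted p = 5.9e-07) and Prss46 by 2.67 (SE 0.38, limma adjusted p = 6.2e-06). All 4 neighbours were called higher on day 20 than on day 14 (median 2.57), and 1 of 4, Prss46, on day 35 against day 20 (1.51, median of the 4 -0.14). Day 14 had 16.9% of the highest day mean for Prss45, 34.9% for Prss44, 8.71% for Prss42 and 2.86% for Prss46. On day 20 these shares were 100%, 95.8%, 97.0% and 28.5%, so Prss46 kept most of its height for day 30. A smaller pseudocount, the 5th percentile, ended the Prss46 call on day 35 against day 20 (1.56, limma adjusted p = 0.068).

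Prss41, another testis serine protease, lies on chromosome 17 near Prss21 and Prss32. It read 9.58 and 15.1 on day 8, 43.5 and 37.8 on day 10, 60.6 and 62.2 on day 14, 98.2 and 79.3 on day 18 and 69.0 and 93.4 on day 35. The rise from day 8 to 14 was 1.79 (SE 0.36, limma adjusted p = 8.9e-04), and 0.83 and not called with the floor. On this probe set the day 14 mean was 69.1% of the highest day mean, more than for any gene of the chromosome 9 cluster. A second probe set of Prss41 had means of 21.0 on day 14 and 101 on day 30. It gave 0.58 (limma adjusted p = 0.24) from day 8 to 14 and 1.315 (limma adjusted p = 0.0024) from day 14 to 20. The 2 probe sets thus disagree on the time of the rise. Prss23 read 26.2 and 35.0 on day 8 and 53.5 and 91.7 on day 14, a log2 difference of 1.03 (limma adjusted p = 0.021) that was 0.87 without day 8 replicate 1 and 0.68 without day 14 replicate 2, both not called. Its other probe sets gave 0.82 and -0.13.

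A further group of sperm proteases rose between days 14 and 20. Prss21 (testisin) is a membrane-anchored protease of sperm, and Prss39 and Prss40 are acrosomal proteases whose genes neighbour each other on chromosome 1. Prss21 did not exceed 18.1 on any array of days 0 to 14 and read 238 and 243 on day 18, 738 and 664 on day 20, 1054 and 1077 on day 30 and 1107 and 1318 on day 35. Every array from day 18 on was thus far above every earlier one. It rose by 4.97 (SE 0.33, limma adjusted p = 2.2e-10) from day 14 to day 20.

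Prss39 read 1.13 and 20.2 on day 14, 184 and 196 on day 18, 723 and 689 on day 20, 1954 and 1866 on day 30 and 2097 and 2112 on day 35. Prss40 read 17.0 and 12.9 on day 14, 42.4 and 38.8 on day 18, 125 and 135 on day 20, 365 and 353 on day 30 and 471 and 422 on day 35. The replicates of Prss39 on day 14 disagree within the low range, and every array of days 18 to 35 lay above all arrays of days 0 to 14 in both genes. Prss39 rose by 5.49 (SE 0.40, limma adjusted p = 8.8e-10) from day 14 to 20, the largest rise of the members in that step, and Prss40 by 2.60 (SE 0.32, limma adjusted p = 1.3e-06). From day 20 to 35 both rose again, by 1.57 (limma adjusted p = 0.0032) and 1.72 (limma adjusted p = 2.1e-04). With the 5th percentile as pseudocount the second rise of Prss39 was 1.57 with an adjusted p of 0.085.

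Prss56, known for its part in eye growth, read 0.886 and 2.44 on day 14, 46.6 and 85.8 on day 18, 153 and 170 on day 20 and 246 and 204 on day 35. All arrays of days 0 to 14 were at or below 5.79. The rise from day 14 to 20 was 4.16 (SE 0.32, limma adjusted p = 1.7e-09), while day 35 differed from day 20 by 0.46 (limma adjusted p = 0.27). On day 20 the means of Prss56 and Prss21 were 71.7% and 57.9% of their highest day mean, and those of Prss39, Prss40 and Prss46 33.5%, 29.1% and 28.5%.

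**Figure D3:**
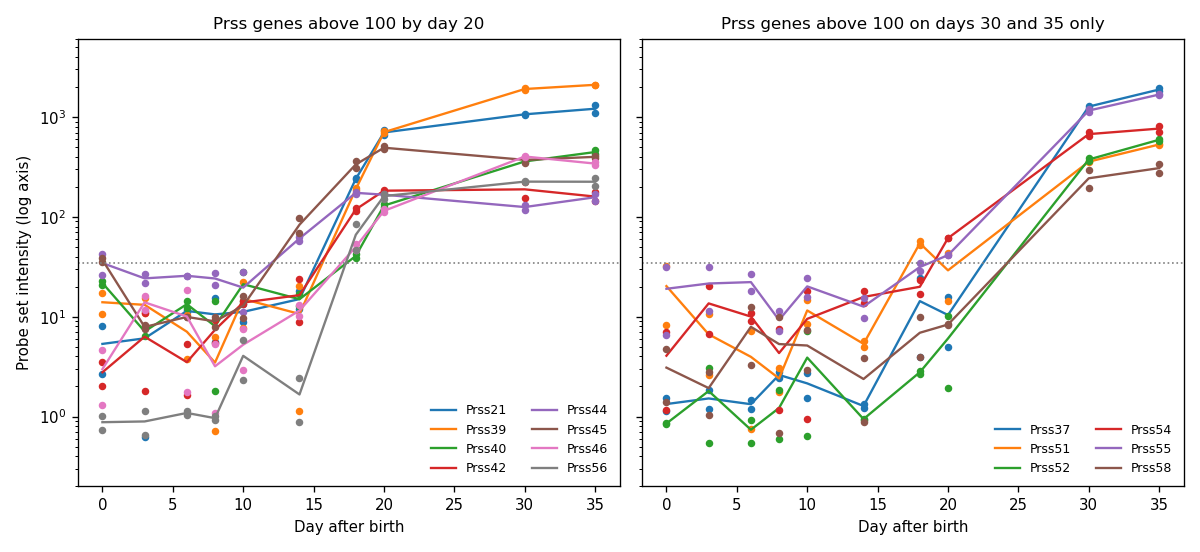
Intensity (log axis) against day after birth for 8 Prss genes above 100 by day 20 (left) and 6 above 100 on days 30 and 35 only (right), a grouping made after the values were seen. Points are single arrays, lines join day means and the dotted line is the pooled median of 34.6. The left group climbs between days 14 and 20, with Prss45 at 97.9 and 69.1 on day 14, and the right group between days 20 and 30, with Prss37 at 15.8 and 4.96 on day 20 and 1306 and 1242 on day 30.

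The steepest late rise was that of Prss37, a protease-like protein of sperm that is needed for sperm to pass into the oviduct. Its arrays were at or below 2.78 up to day 14, 3.97 and 24.7 on day 18, 15.8 and 4.96 on day 20, 1306 and 1242 on day 30 and 1961 and 1815 on day 35. The replicates of days 18 and 20 disagree near the bottom of the scale, whereas the 4 arrays of days 30 and 35 stand far above all others. It rose by 6.77 (SE 0.39, limma adjusted p = 6.9e-11) from day 20 to 35 and by 7.69 from day 0, more than any other member. A dimmer second probe set also gave higher values on day 35 than on day 20, by 2.40.

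Prss55, Prss51 and Prss52 lie together on chromosome 14. Prss55, a membrane-anchored protease of sperm, read 41.1 and 41.7 on day 20, 1191 and 1133 on day 30 and 1685 and 1679 on day 35. Prss52 read 10.2 and 1.91, then 363 and 388, then 604 and 581, and Prss51 read 14.4 and 43.9, then 359 and 356, then 540 and 522. In all 3 the arrays of day 35 lay above those of day 30, which lay above those of day 20. From day 20 to 35 they rose by 5.10 (SE 0.38, limma adjusted p = 1.9e-09), 5.50 (SE 0.37, limma adjusted p = 4.1e-10) and 3.99 (SE 0.44, limma adjusted p = 3.7e-07).

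Prss54 read 61.0 and 61.4 on day 20, 639 and 710 on day 30 and 819 and 715 on day 35. Prss58 read 8.37 and 8.33, then 193 and 295, then 341 and 275. The arrays of day 20 lay far below the others in both genes, and only those of days 30 and 35 overlapped in Prss58. The rises from day 20 to 35 were 3.48 (SE 0.43, limma adjusted p = 1.5e-06) and 4.28 (SE 0.42, limma adjusted p = 8.3e-08). On day 20 the means of Prss37, Prss52, Prss55, Prss58, Prss51 and Prss54 were 0.55%, 1.02%, 2.46%, 2.71%, 5.48% and 7.99% of the highest day mean, and on day 30 between 63.4% (Prss52) and 88.0% (Prss54). Prss51, Prss54 and Prss55 were also called higher on day 20 than on day 14, by 1.36, 1.56 and 1.28, from low levels. None of these 3 calls remained with the floor (0.17, 0.83 and 0.26). Without day 14 replicate 2 that of Prss51 (1.33, adjusted p = 0.058) and that of Prss55 (1.07, adjusted p = 0.071) ended, and without day 20 replicate 2 that of Prss51 (0.76).

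The kallikreins lie in 1 cluster of 20 members on chromosome 7, and 15 were tested. Klk1 is tissue kallikrein, which frees kinins from kininogen, and the Klk1b genes are its rodent-specific copies, of which Klk1b21, Klk1b24 and Klk1b27 are known from adult Leydig cells. The copies are so alike that a probe set may read more than 1 of them, so their values are uncertain as to the gene. The 150 bases before the start of the 4 copies with the largest rises between days 0 and 35 are shown with those of Klk1b16, which stayed low, and of Klk1, from RefSeq GRCm38.p6, plus strand. Capitals mark the longest stretch, 23 bases, that Klk1b8, Klk1b21, Klk1b24 and Klk1b27 share. The windows are chr7:43950516-43950665 for Klk1b8, chr7:44102142-44102291 for Klk1b21, chr7:44188086-44188235 for Klk1b24, chr7:44052140-44052289 for Klk1b27, chr7:44137140-44137289 for Klk1b16 and chr7:44225210-44225359 for Klk1.
Klk1b8: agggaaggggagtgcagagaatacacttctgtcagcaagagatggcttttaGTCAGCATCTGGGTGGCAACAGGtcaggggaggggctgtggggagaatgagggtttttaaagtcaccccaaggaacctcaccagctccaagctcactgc
Klk1b21: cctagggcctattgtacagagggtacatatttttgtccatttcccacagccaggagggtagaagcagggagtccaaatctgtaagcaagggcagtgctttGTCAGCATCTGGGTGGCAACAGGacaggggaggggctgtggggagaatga
Klk1b24: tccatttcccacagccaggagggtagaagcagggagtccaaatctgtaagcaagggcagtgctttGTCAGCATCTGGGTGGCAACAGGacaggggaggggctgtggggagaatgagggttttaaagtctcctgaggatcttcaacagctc
Klk1b27: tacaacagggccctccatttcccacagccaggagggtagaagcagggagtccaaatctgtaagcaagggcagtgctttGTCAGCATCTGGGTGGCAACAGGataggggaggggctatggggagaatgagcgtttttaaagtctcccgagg
Klk1b16: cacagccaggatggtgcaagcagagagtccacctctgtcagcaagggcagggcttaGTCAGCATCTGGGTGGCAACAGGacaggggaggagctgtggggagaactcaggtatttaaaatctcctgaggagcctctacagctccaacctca
Klk1: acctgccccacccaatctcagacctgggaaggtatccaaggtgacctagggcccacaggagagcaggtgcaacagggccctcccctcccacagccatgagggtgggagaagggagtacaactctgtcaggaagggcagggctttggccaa
The stretch occurred in 8 of 27025 promoters, all of Klk1b genes: besides the 4 it was taken from, those of Klk1b1, Klk1b3, Klk1b11 and Klk1b16. Of the aligned bases of the 250-base windows, 97.7% in Klk1b21, 91.9% in Klk1b27, 81.9% in Klk1b16, 76.3% in Klk1b8 and 75.4% in Klk1 were identical to Klk1b24. The window of Klk1b5, which also rose, is 85.4% identical and does not hold the stretch.

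Klk1b8 had the largest rise of the kallikreins after day 20. It read 13.7 and 22.2 on day 14, 30.1 and 25.5 on day 18, 13.1 and 12.7 on day 20, 887 and 806 on day 30 and 797 and 933 on day 35. The arrays of days 30 and 35 overlap each other and lie far above all 16 earlier arrays, of which 30.1 was the highest. From day 20 to 35 it rose by 5.39 (SE 0.47, limma adjusted p = 1.6e-08). Klk1b27 read 12.2 and 31.0 on day 20, 281 and 452 on day 30 and 467 and 410 on day 35, and rose by 4.0 (SE 0.36, limma adjusted p = 3.1e-08).

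Klk1b21 and Klk1b24 climbed earlier and more evenly. Klk1b21 read 7.51 and 4.92 on day 8, 36.2 and 65.8 on day 14, 173 and 138 on day 20, 612 and 620 on day 30 and 818 and 506 on day 35. Klk1b24 read 13.8 and 15.1, then 39.9 and 50.8, then 132 and 157, then 491 and 534, then 753 and 555. Both were higher on both arrays at each step up to day 30, and the arrays of day 35 were more spread than those of day 30. Klk1b21 rose by 2.03 (SE 0.36, limma adjusted p = 2.3e-04), 1.51 and 2.0 in the steps from day 8 to 14, 14 to 20 and 20 to 35, and Klk1b24 by 1.25 (SE 0.28, limma adjusted p = 0.0022), 1.52 and 2.10. From day 8 to 14 these rises were 0.50 and 0.38 with the floor and not called.

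On day 14 Klk1b8 and Klk1b27 were also called higher than on day 8, by 1.43 (limma adjusted p = 0.030) and 1.26 (limma adjusted p = 0.014), with all arrays of both days at or below 22.2. With the floor neither differed. The Klk1b8 call ended without any 1 array of day 8 or 14 (1.19 to 1.67), and that of Klk1b27 without day 8 replicate 1 (1.26), day 8 replicate 2 (1.27) or day 14 replicate 2 (1.13).

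Klk1b5 read 71.7 and 58.4 on day 18, 30.9 and 24.9 on day 20, 123 and 216 on day 30 and 129 and 138 on day 35. The pseudogene Klk1b7-ps read 17.6 and 24.1 on day 20, 157 and 167 on day 30 and 178 and 177 on day 35. Both rose from day 20 to 35, by 1.99 (SE 0.39, limma adjusted p = 3.5e-04) and 2.70 (SE 0.39, limma adjusted p = 1.1e-05). Day 18 of Klk1b5 lay above day 20, without overlap, but a second probe set had a mean of 26.6 on day 18 and 54.9 on day 20 and gave 1.21 from day 20 to 35.

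The probe set that represents Klk1 did not follow its copies. It read 85.4 and 75.4 on day 0, 129 and 118 on day 30 and 37.7 and 89.3 on day 35, with a log2 difference of -0.41 (SE 0.33, limma adjusted p = 0.27) between days 0 and 35. The other 3 probe sets of Klk1 were higher on day 35 than on day 0, by 2.92, 2.44 and 1.93, so the probe sets of this gene disagree. The mean of all 4 gave 1.72 (limma adjusted p = 1.8e-05). Klk8 (neuropsin) fell by 1.39 between days 0 and 35 (SE 0.37, limma adjusted p = 0.0022), from 66.1 and 72.0 to 11.3 and 37.0, and without day 35 replicate 1 its difference was -0.78 and not called. With the floor it was -0.95. Klk4, Klk6, Klk7, Klk9 and Klk13 were called in none of the 5 comparisons by limma, and no array of any of them exceeded 41.9. Klk1b1 and Klk5 were called higher on day 35 than on day 0, by 1.28 and 1.36 with limma adjusted p of 0.018 and 0.015, on arrays of at most 32.7, and neither call remained with the floor. The Klk1b1 call ended without day 0 replicate 2 (0.81) or day 35 replicate 2 (0.94), and the Klk5 call without day 0 replicate 1 (1.19) or day 35 replicate 1 (0.70).

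**Figure D4:**
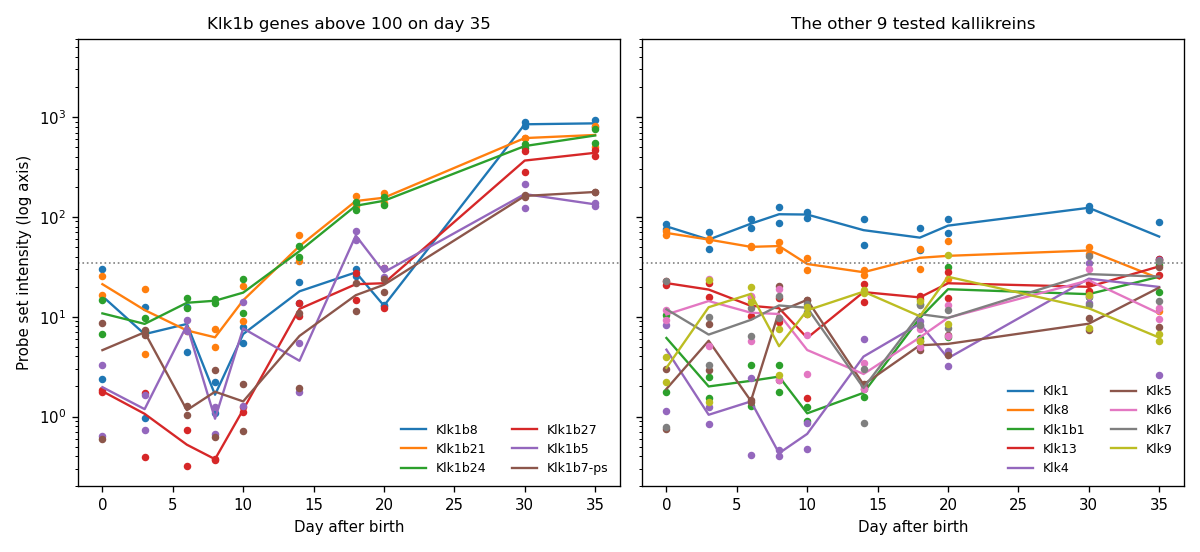
Intensity (log axis) against day after birth for the 6 Klk1b probe sets above 100 on day 35 (left) and the other 9 tested kallikreins (right), grouped after the values were seen. Points are single arrays, lines join day means and the dotted line is the pooled median of 34.6. Klk1b21 and Klk1b24 climb from day 14, Klk1b8 jumps from 13.1 and 12.7 on day 20 to 887 and 806 on day 30, and no other kallikrein exceeds the 129 of Klk1 on day 30.

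Beside these late rises of Prss and Klk genes, the summed intensity of 7 germ cell markers went from 2220 on both day 0 arrays to 15800 on day 20 and to 31300 and 35100 on day 35, and 6 of the 7 were called higher on day 35 than on day 0. That of the 5 Leydig cell markers on the array, of 6 listed, was 8460 and 8740 on day 0, 2410 and 2480 on day 20 and 3450 and 4770 on day 35. On day 35 against day 0, none of these 5 was called higher and 3 were called lower. On day 35 against day 20, Cyp17a1 (2.06) and Hsd17b3 (1.70) were called higher and Hsd3b1 (-1.03) lower. No marker was at 0. The part of these cell types in the rises was not tested.

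Among the transmembrane proteases the levels were low, and no array of Tmprss2, Tmprss3, Tmprss4, Tmprss5 or Tmprss15 exceeded 103. Tmprss2, which activates viral glycoproteins in the airway, read 9.35 and 14.7 on day 14, 58.1 and 42.1 on day 20 and 54.3 and 90.6 on day 35. It rose by 1.54 (SE 0.38, limma adjusted p = 0.0021) from day 14 to 20 and by 2.06 between days 0 and 35 (limma adjusted p = 7.9e-05), and with the floor the first was 0.52 and not called. Its 3 other probe sets gave 0.23 to 1.36 between days 0 and 35. Tmprss3, Tmprss4, Tmprss5 and Tmprss15, the last of which is enteropeptidase, were called higher on day 35 than on day 0 by 1.14 to 2.17, and none of them with the floor. The Tmprss5 call ended without day 0 replicate 2 (0.95) or day 35 replicate 2 (0.51), and the Tmprss15 call without day 0 replicate 1 (1.36) or day 35 replicate 1 (1.35). Tmprss13 went the other way, from 132 and 117 on day 0 through 65.9 and 55.4 on day 8 and 17.1 and 25.9 on day 14 to 29.8 and 19.7 on day 35. It fell by 1.24 from day 8 to 14 (SE 0.30, limma adjusted p = 0.0038), which was -1.01 and not called without day 14 replicate 1 and -0.81 with the floor, and by 2.04 over the whole span (limma adjusted p = 4.0e-06).

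Prss2, a pancreatic trypsinogen, read 29.7 and 6.59 on day 14, 90.2 and 40.3 on day 20 and 79.4 and 56.0 on day 35. It was called higher on day 20 than on day 14 by 1.56 (limma adjusted p = 0.0043), but not without day 14 replicate 2 (0.87) or day 20 replicate 1 (1.05), nor with the floor (0.80). Summed intensity of the 3 exocrine pancreas markers on the array, of 5 listed, was 83.8 and 88.6 on day 0, 29.2 and 37.3 on day 14, and 19.7 and 20.9 on day 20. Prss8 (prostasin), an activator of the epithelial sodium channel, read between 1.46 and 53.7 on the 20 arrays and was called in no comparison by limma, with the largest difference, 0.79, between days 0 and 35 (limma adjusted p = 0.23). The thymic protease Prss16 differed by 0.84 between days 0 and 35 (limma adjusted p = 0.015), under the size needed for a call. Prss36, between 62.6 and 142 on all arrays, and Prss27 and Prss53, whose replicates spread widely below 58.3, were called in none of the 5 comparisons. Prss22 and Prss32 were called higher on day 35 than on day 20, by 1.15 and 2.08, and not with the floor (0.76 and 0.38), and Prss29 higher on day 20 than on day 14 by 1.11, also not with the floor (0.54). The Prss22 call ended without day 20 replicate 1 (0.72) or day 35 replicate 2 (0.71), and the Prss29 call without day 14 replicate 1 (1.12), day 14 replicate 2 (1.10) or day 20 replicate 1 (0.59).

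Among the genes that fell, Prss35 had the largest change. This protease-like protein, first studied in the ovary, carries a threonine in place of the catalytic serine. It read 2894 and 2690 on day 0, 3089 and 3144 on day 3, 2352 and 2181 on day 8, 1187 and 1600 on day 14, 530 and 511 on day 20, 119 and 147 on day 30 and 97.2 and 107 on day 35. From day 3 on, both arrays of each of these days lay below both of the day before. It fell by 1.39 (SE 0.11, limma adjusted p = 2.9e-09) from day 14 to 20, by 2.27 (limma adjusted p = 5.9e-12) from day 20 to 35 and by 4.67 over the span (limma adjusted p = 1.1e-17).

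Serpinh1, a collagen chaperone that inhibits no protease, read 1854 and 1950 on day 0, 1242 and 1371 on day 8, 750 and 874 on day 14, 212 and 249 on day 20 and 113 and 91.6 on day 35. Each of these days lay below the one before with no overlap. It fell by 1.78 (SE 0.12, limma adjusted p = 1.8e-10) from day 14 to 20 and by 4.12 over the span (limma adjusted p = 9.2e-17), and a second probe set gave -4.16. Its fall of 1.12 from day 20 to 35 was -0.92 with quantile normalization, -0.96 as the mean of its probe sets and -0.98 without day 35 replicate 2, and then not called.

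Serpinf1, a factor that restrains vessel growth, read 822 and 850 on day 0, 538 and 647 on day 14, 197 and 247 on day 20 and 128 and 105 on day 35. Serping1, the inhibitor of complement C1s and of kallikrein, stayed high until day 14, with 724 and 732 on day 0 and 985 and 1126 on day 14, then read 482 and 528 on day 20 and 240 and 199 on day 35. In both, the arrays of day 20 lay below all earlier ones of the days named, and those of day 35 lower still. Serpinf1 fell by 1.39 (SE 0.18, limma adjusted p = 1.9e-06) from day 14 to 20 and Serping1 by 1.05 (SE 0.13, limma adjusted p = 1.1e-06). The Serping1 fall was -0.95 without day 14 replicate 2 and -0.99 without day 20 replicate 1, just under the size for a call. From day 20 to 35 Serping1 fell by 1.18 (limma adjusted p = 3.6e-07), -1.0 and not called with quantile normalization. Over the span the falls were 2.77 and 1.70. Serpinf2, the plasmin inhibitor and the neighbour of Serpinf1 on chromosome 11, went up instead, from 12.6 and 5.93 on day 20 to 77.3 and 76.6 on day 35, a rise of 2.34 (SE 0.59, limma adjusted p = 0.0028).

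Clade B serpins act mostly inside cells. Of the 11 tested, 4 (36.4%) were called lower and 2 (18.2%) higher on day 35 than on day 0, against 27.6% and 27.3% of all genes. The 2 higher ones, Serpinb6c and Serpinb9b, were not called with the floor (0.12 and 0.94). The Serpinb9b call also ended without day 0 replicate 1 (1.15) or day 35 replicate 2 (1.205). Paralogs within Serpinb6, Serpinb9, Serpina1 and Serpina3 are alike in sequence, so a probe set may read more than 1 copy and values are uncertain as to the gene. Serpinb6a read 2939 and 2727 on day 0, 1902 and 1856 on day 8, 1195 and 1120 on day 14, 1299 and 1102 on day 20 and 1209 and 1216 on day 35. Days 18 (997 and 1006) and 30 (924 and 822) lay below day 14, while day 20 overlapped it and day 35 lay just above it. None of the 4 steps compared reached the size of a call. Days 8 and 14 still differed from the day before them in the comparisons by -0.59 (limma adjusted p = 1.2e-05) and -0.70 (limma adjusted p = 7.6e-07). Over the span it fell by 1.22 (SE 0.08, limma adjusted p = 1.6e-11). Serpinb1a, an inhibitor of neutrophil elastase, read 372 and 367 on day 0, 242 and 400 on day 14, 94.2 and 92.9 on day 20 and 59.1 and 34.9 on day 35. On this probe set it thus held until day 14 and then fell by 1.65 to day 20 (SE 0.21, limma adjusted p = 2.1e-06). A dimmer second probe set gave -0.37 (limma adjusted p = 0.46) in that step and -1.08 (limma adjusted p = 0.040) from day 20 to 35.

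Serpinb6b read 155 and 143 on day 0, 90.8 and 125 on day 14, 44.1 and 47.3 on day 20 and 23.7 and 6.97 on day 35, and fell by 2.86 over the span (SE 0.41, limma adjusted p = 3.0e-06). Its step from day 14 to 20 (-1.10, limma adjusted p = 0.028) was not called without day 14 replicate 2 (-0.88), day 20 replicate 1 (-1.05) or day 20 replicate 2 (-1.14). Its step from day 20 to 35 (-1.31, limma adjusted p = 0.013) was not called without day 20 replicate 2 (-1.26) or day 35 replicate 2 (-0.76), nor with the floor (-0.40). Serpinb9, the inhibitor of granzyme B, fell by 1.22 over the span (SE 0.23, limma adjusted p = 9.7e-05), from 127 and 123 to 59.6 and 40.7, and without day 35 replicate 2 the difference was -0.98 and not called.

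Serpina5 (protein C inhibitor), which male mice need for fertility, read 879 and 763 on day 0, 595 and 647 on day 8, 891 and 940 on day 14, 477 and 473 on day 20, 250 and 269 on day 30 and 336 and 241 on day 35. It went down, up and down again, and the arrays of days 20 to 35 lay below all earlier ones. Over the span it fell by 1.5 (SE 0.12, limma adjusted p = 4.7e-10), while its steps of -0.40, 0.55, -0.94 and -0.72 each stayed under the size of a call. Serpini1 (neuroserpin), an inhibitor of tissue plasminogen activator, read 100 and 111 on day 0, 170 and 163 on day 8, 92.8 and 78.1 on day 20 and 29.7 and 20.0 on day 35. It was lowest on day 35, with no overlap, and fell by 1.53 from day 20 (SE 0.23, limma adjusted p = 2.1e-05) and by 1.81 over the span. Its other probe sets gave -0.95 and 0.71 over the span, and the mean of its probe sets -0.68, not called, as was -0.63 from day 20 to 35. Prss12 (neurotrypsin), which cuts agrin at synapses, read 64.3 and 63.0 on day 0, 159 and 152 on day 8, 153 and 170 on day 10, 82.0 and 68.6 on day 20 and 25.5 and 27.5 on day 35. It rose by 1.20 to day 8 (SE 0.23, limma adjusted p = 6.5e-04) and fell by 1.27 from day 20 to 35 (limma adjusted p = 1.2e-04). Its difference of -1.06 over the span was -0.83 with the larger pseudocount and -0.88 with the floor, and not called.

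**Figure D5:**
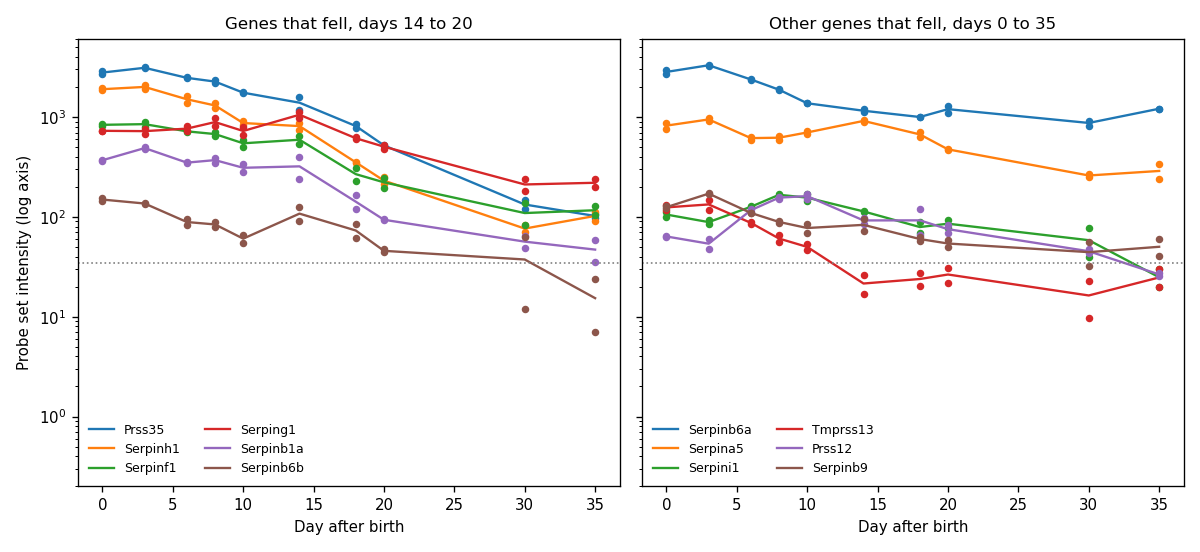
Intensity (log axis) against day after birth for 6 members called lower between days 14 and 20 (left) and 6 others called lower on day 35 than on day 0 (right). Points are single arrays, lines join day means and the dotted line is the pooled median of 34.6. Prss35 goes from 2894 and 2690 on day 0 to 97.2 and 107 on day 35, whereas Serpinb6a stays between 822 and 1299 from day 14 on.

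Beside these falls the summed intensity of 7 Sertoli cell markers was 8570 and 9340 on day 0, 9830 and 9990 on day 14, 5980 and 6140 on day 20 and 4820 and 5130 on day 35, with 4 of 7 called lower and 2 higher over the span. For the 4 peritubular myoid markers the sums were 3850 and 3920, then 4850 and 5520, then 3330 and 3370, then 1680 and 1840, and 3 of 4 were called lower. For the 4 endothelial markers they were 416 and 425 on day 0 and 75.8 and 150 on day 35, and 4 of 4 were called lower. Their part in the falls was not tested.

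Several serpins rose between the days compared. Serpina1c, an alpha-1-antitrypsin copy that shares sequence with its paralogs, read 13.9 and 10.4 on day 14, 113 and 34.5 on day 20 and 97.0 and 139 on day 35. It rose by 2.61 over the span (SE 0.45, limma adjusted p = 3.5e-05) and by 1.85 from day 14 to 20 (limma adjusted p = 0.0018), the latter 1.09 without day 20 replicate 1 and 0.86 with the floor, and not called in either. Serpina3a read 33.6 and 51.9 on day 20 and 134 and 171 on day 35 and rose by 1.68 (SE 0.27, limma adjusted p = 3.9e-05). On day 0 it had read 88.7 and 74.5, so that its course dipped, and the span gave 0.84. Beside these rises, the sum of the 4 liver markers was 46.1 and 51.7 on day 0, 16.3 and 16.4 on day 14, 42.1 and 94.7 on day 20 and 60.2 and 69.9 on day 35, and 1 of the 3 tested was called higher over the span. That of the 2 adipose markers on the array, of 4 listed, was 87.0 and 99.0 on day 0, 12.5 and 23.9 on day 14, 369 and 412 on day 30 and 145 and 293 on day 35, with 1 called higher (Adipoq, 3.25) and 1 lower. That of the 4 epididymal markers on the array, of 5 listed, was 36.5 and 51.3 on day 0 and 92.2 and 97.6 on day 35, and both tested ones were called higher. Their part in the rises was not tested.

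Serpina3n, an acute-phase antichymotrypsin, read 3.05 and 3.85 on day 0, 21.2 and 20.3 on day 8, 33.3 and 44.1 on day 14 and 56.0 and 57.4 on day 35. Its arrays of days 8 to 35 were all above those of days 0 to 6, the highest of which was 4.82. It rose by 2.52 over the span (SE 0.36, limma adjusted p = 2.8e-06) and by 1.34 to day 8 (limma adjusted p = 0.0099), the latter not called without day 0 replicate 1 (1.29), day 8 replicate 1 (1.32) or day 8 replicate 2 (1.37). With the floor the span gave 0.71 and day 8 no difference.

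Serpinb9g and Serpinb9b, of the clade B cluster on chromosome 13, read 7.24 and 2.83 and 10.1 and 3.23 on day 14, and 37.2 and 38.6 and 42.4 and 33.8 on day 20. They were called higher by 1.85 (limma adjusted p = 0.0076) and 1.70 (limma adjusted p = 0.0022), and with the floor the differences were 0.13 and 0.15. Without day 14 replicate 2 the Serpinb9g call ended (1.60, limma adjusted p = 0.066). In that cluster, of 8 tested genes, 2 were called higher and 4 lower on day 35 than on day 0, where 27.3% and 27.6% of all genes were. The 2 rises, of Serpinb6c and Serpinb9b, were not called with the floor. Serpina10, Serpina12, Serpina4-ps1, Serpinb2, Serpinb6e, Serpinb8 and Serpinc1 (antithrombin) were called in none of the 5 comparisons by limma, and none of their arrays exceeded 89.5.

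By day 8 the calls were few. Besides Serpina3n, Prss12 and Prss45, limma called Prss51 (-1.31, adjusted p = 0.038), Klk1b21 (-1.03, adjusted p = 0.044) and Prss40 (-1.02, adjusted p = 0.029) lower on day 8 than on day 0. Prss51 read 8.20 and 32.3 against 1.76 and 3.06, Klk1b21 25.7 and 16.7 against 7.51 and 4.92, and Prss40 20.6 and 22.9 against 1.80 and 14.3. All these values are below the median of the arrays, and with the floor none of the 3 genes differed. The Prss51 call ended without day 0 replicate 2 (-0.65), day 8 replicate 1 (-1.22) or day 8 replicate 2 (-1.40), and the Prss40 call without day 0 replicate 1 (-1.07), day 0 replicate 2 (-0.96) or day 8 replicate 1 (-0.42). The Klk1b21 call ended without any 1 array of day 0 or 8 (-1.26 to -0.81), or of days 6, 18 and 20, where the difference stayed at -1.03.

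Other genes of the same system, outside the symbol rule, were read from a list of 30 proteases, receptors and inhibitors, 28 of them tested. On day 35 against day 0, 7 were called higher and 6 lower (median 0.01), where 27.3% and 27.6% of all tested genes were. The lower ones were Pcsk5 (-3.635), Htra3 (-3.52), F2r (-3.13), Htra1 (-2.78), Lrp1 (-2.77) and Pcsk6 (-1.72). The higher ones included the acrosomal protease Acr (5.92, SE 0.17, limma adjusted p = 1.2e-16), its binding protein Acrbp (5.75), the acrosomal inhibitor Spink2 (5.62) and the sperm convertase Pcsk4 (2.99). Acr and Spink2 were also called higher on day 14 than on day 8, by 2.39 and 3.18, and on day 20 than on day 14, by 3.13 and 3.64. From day 20 to 35 limma called Pcsk6 (-1.12), Htra1 (-1.09) and Htra3 (-1.29) lower, and Acr differed by 0.78 (limma adjusted p = 8.1e-04), under the size of a call.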

How the data were processed

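The values deposited by the authors are linear intensities, 1 for each probe set on each array, and come without detection calls. Per the labels, total RNA was extracted with Trizol and biotin-labelled by one-cycle 3' amplification. How probes were summarized is not stated there. Of 45101 probe sets, 64 are controls, 34945 carry 1 gene symbol, 932 several and 9160 none in the annotation used. All 102 members matched RefSeq GRCm38.p6 by Entrez identifier, and 84 had a promoter entry, 11 with more than 1 start (the first listed was used).

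Values were taken as log2(intensity + 7.83), the pooled 20th percentile. limma 3.58.1 (R 4.3.3; lmFit, eBayes with trend, two-sided) fitted day as a factor to all 20 arrays, with 10 residual and 8.88 prior degrees of freedom, and p-values were adjusted by Benjamini-Hochberg over 16429 genes. The number of arrays limits the precision. The naming rule took genes that were called with both later arrays on 1 side of both earlier ones, up to 10 per direction. It also took a list of reference members. Further members outside that rule are described as well. The members and lists were chosen with earlier results of these data known. The model was tested on simulated data. Replicate numbers do not pair the arrays: deviations of same-numbered arrays correlated between -0.0249 and 0.0561 over 45 day pairs. Over the tested members, r between the arrays of 1 day, across genes, was 0.907 to 0.972. Alternatives were other scalings, pseudocounts, filters, a floor, probe set means, no trend, array weights, thresholds, a replicate block, fits limited to the days compared, and each array left out in turn. Figures were drawn with matplotlib 3.10.9.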

Additional observations from a re-analysis of the deposited data

How the results depend on the processing

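Counts of called members moved most with the treatment of low values. With a floor at the pooled median, the members called over the time course went from 65 to 43, those higher on day 20 than on day 14 from 27 to 10, and those higher on day 35 than on day 0 from 38 to 24. With the same floor, 1 member was higher and 2 were lower on day 8 than on day 0 (2 and 4 without it, and the 2 lower ones are other genes, Serpina3a and Tmprss13), and 2 were higher and 0 lower on day 14 than on day 8 (8 and 1 without it). With a pseudocount at the 40th percentile the counts were 1 and 0 on day 8 and 3 and 0 on day 14. The members lower on day 8 numbered 1 with quantile normalization, 2 with a common median, 2 without the trend and 1 at an adjusted p under 0.01. Those higher on day 14 numbered 5 at an adjusted p under 0.01, and 2 were lower on the compared days alone. The causes of the changes with scaling, trend and days fitted were not tested. The calls on day 8 split 2 higher to 4 lower, 2 to 2 with a common median and 2 to 1 with quantile normalization. A common median moved the median of all genes from 0.01 to -0.18 on day 20 against day 14. Of the 162 results of named members, 1 reversed in 1 of the 33 alternatives, Klk1 on day 35 against day 0 (1.72 as the mean of its probe sets).

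Leaving out 1 array at a time gave 61 to 68 members over the time course, 1 to 2 higher and 1 to 5 lower on day 8, 5 to 9 and 0 to 1 on day 14, 19 to 28 and 4 to 7 on day 20, 20 to 22 and 5 to 9 on day 35 against day 20, and 33 to 39 and 12 to 13 on day 35 against day 0. With replicate number as a block, 65 members were called over the time course, and 27 higher and 6 lower on day 20 against day 14, and no member call changed. Arrays give no count of molecules, and the probe sets near or below the median of 34.6 carry the least certain differences.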
